A study of Mus musculus with 12 samples.

Results

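The core loop of the circadian clock was described here through 10 genes, Per1, Per2, Per3, Cry1, Cry2, Arntl (also called Bmal1), Clock, Npas2, Rora and Rorb. They were taken by name from a table of 18558 genes, and all 10 were among the 13982 genes with enough reads to be tested. In the mammalian clock, the proteins of Arntl and of Clock or Npas2 pair up and switch on genes that carry E-box sequences, among them the Per and Cry genes. The PER and CRY proteins then build up and hold that pair back, so that transcription rises and falls once a day. A second loop acts on Arntl itself, where ROR receptors activate and REV-ERB receptors (Nr1d1 and Nr1d2) repress. Outside the brain's central clock the loop also runs in the hippocampus, where clock genes are known to cycle over the day.

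RNA came from the pyramidal layer of CA1 of the dorsal hippocampus, cut out by laser microdissection from brains of male mice aged 3 to 6 months. The genotypes were Neil1-/-, Neil2-/-, Neil1-/-Neil2-/- and WT, and the study asked whether NEIL1 and NEIL2, enzymes that remove oxidized bases from DNA, also affect gene expression in CA1. The mutants are knockouts on a C57Bl6 background, each kept as a separately bred line, with C57BL/6 N mice as WT. All mice were kept on a 12h/12h light cycle and taken untreated from the home cage. No source used here gives the hour at which a mouse was killed, so sampling time and genotype cannot be told apart in any difference below. There were 2 Neil1-/-, 3 Neil2-/-, 2 Neil1-/-Neil2-/- and 3 WT libraries. A further 2 libraries carry the title of one genotype and the label of another, and entered no comparison. The study also excluded 2 libraries, as outliers, and compared groups of the same sizes. Its text does not name those 2, so the sets of libraries may differ.

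The 10 libraries held 19618923 to 21970180 estimated counts. Markers of CA1 pyramidal neurons summed to 2238 to 2908 CPM (a gene's counts per equal library total, with TMM factors that adjust for library composition) and all 7 were present. Neil2 had 0 counts in all 5 libraries without NEIL2, against 5 to 10 in the 5 with it. Neil1 had 119 to 161 counts in libraries labelled Neil1-/- or Neil1-/-Neil2-/-, against 61 to 95 in those of WT, and as a total over the whole gene this row cannot check for a deleted part. The first principal component, which took up 23.4% of the variance, set Neil1-/-Neil2-/- replicate 1 (-43.9) away from the rest (-10.9 to 21.1). As the tissue is bulk, more cells of a type and more RNA per cell cannot be told apart.

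DNA elements known from the clock could be looked for next to the start sites of these genes, and 5 stretches are shown because each carries the letters of such an element. Promoters, from 250 bases before to 50 after a start, were taken from RefSeq (GRCm38.p6). Of the 10 genes 9 had an entry, with 14 promoters in all; Per2 had none. Each stretch of 100 bases is written 5′ to 3′ on the strand of its gene, with the element in capitals.
Per1 promoter, plus strand, chr11:69098736-69098835: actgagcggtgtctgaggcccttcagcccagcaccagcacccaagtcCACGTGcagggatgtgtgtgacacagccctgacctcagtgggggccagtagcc
Cry1 promoter, minus strand, chr10:85185072-85185171: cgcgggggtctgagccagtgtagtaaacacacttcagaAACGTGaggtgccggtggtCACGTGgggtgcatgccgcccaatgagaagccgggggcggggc
Per3 promoter, minus strand, chr4:151044794-151044893: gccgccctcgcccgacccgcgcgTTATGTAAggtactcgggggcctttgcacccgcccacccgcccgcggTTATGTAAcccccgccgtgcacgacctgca
Arntl promoter, plus strand, chr7:113207461-113207560: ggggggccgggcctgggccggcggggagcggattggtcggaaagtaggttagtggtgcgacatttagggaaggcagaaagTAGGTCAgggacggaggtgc
Ciart promoter, minus strand, chr3:95882256-95882355: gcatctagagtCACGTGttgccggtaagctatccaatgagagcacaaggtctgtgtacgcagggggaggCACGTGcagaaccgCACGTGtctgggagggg
The first Per1 promoter holds 1 E-box (CACGTG), 166 bases before the start, of the kind that the ARNTL and CLOCK pair binds. The second Per1 promoter holds 0 of the elements searched for. That of Cry1 holds an E-box at -60 and the variant CACGTT, read on the opposite strand, at -79. The Per3 promoter holds 2 D-boxes (TTATGTAA), the element of DBP and NFIL3, at -205 and -158. The second Arntl promoter holds the ROR element TAGGTCA 31 bases after the start, the sequence shared by ROR and REV-ERB receptors. Ciart, which encodes a repressor of the ARNTL and CLOCK pair and is shown for comparison, holds 3 E-boxes at -116, -58 and -44. Searched on both strands, CACGTG was present in 7.15% of all 32851 promoters, CACGTT in 4.68%, a D-box (TTATGTAA or TTACGTAA) in 1.06%, and a ROR element (TAGGTCA or TGGGTCA) in 6.45%. Among the 14 clock loop promoters, CACGTG was in 2, CACGTT in 3 (those of Cry1 and Cry2 and 1 of Rorb), a D-box in 1 and a ROR element in 1. The CRE TGACGTCA was in 1.79% of all promoters and in 0 of the 14. These matches describe the letters in the window and are no evidence of binding.

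All 10 genes were expressed in CA1, from 67 to 160 estimated counts per library for Rorb up to 2203 to 3169 for Cry2. Set on a scale per exon length (CPM per kb), WT levels were highest for Cry2 (29.3 ± 3.18) and Arntl (20.7 ± 1.94, SD, n = 3 for both), followed by Per1 at 11.5 ± 1.72. Per2 (8.37 ± 0.498), Clock (8.00 ± 0.682) and Npas2 (7.75 ± 0.530) came next, Clock lying within 1 SD of both of its neighbours, whereas Per2 and Npas2 differed by more than either SD. Cry1 was at 4.32 ± 0.393, Per3 at 3.40 ± 0.109, Rora at 1.64 ± 0.0941 and Rorb at 0.503 ± 0.109 CPM per kb. The genes differed in how far they varied over the 10 libraries of all genotypes. Clock and Per2 were the steadiest, with a coefficient of variation of 6.05% and 5.87% and a highest library 1.19 and 1.22 times the lowest. Rorb (28.3%), Cry1 (23.1%), Npas2 (19.7%) and Per1 (18.9%) varied most, and the highest library was 2.38, 2.10, 2.17 and 1.90 times the lowest, in that order.

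**Figure D1:**
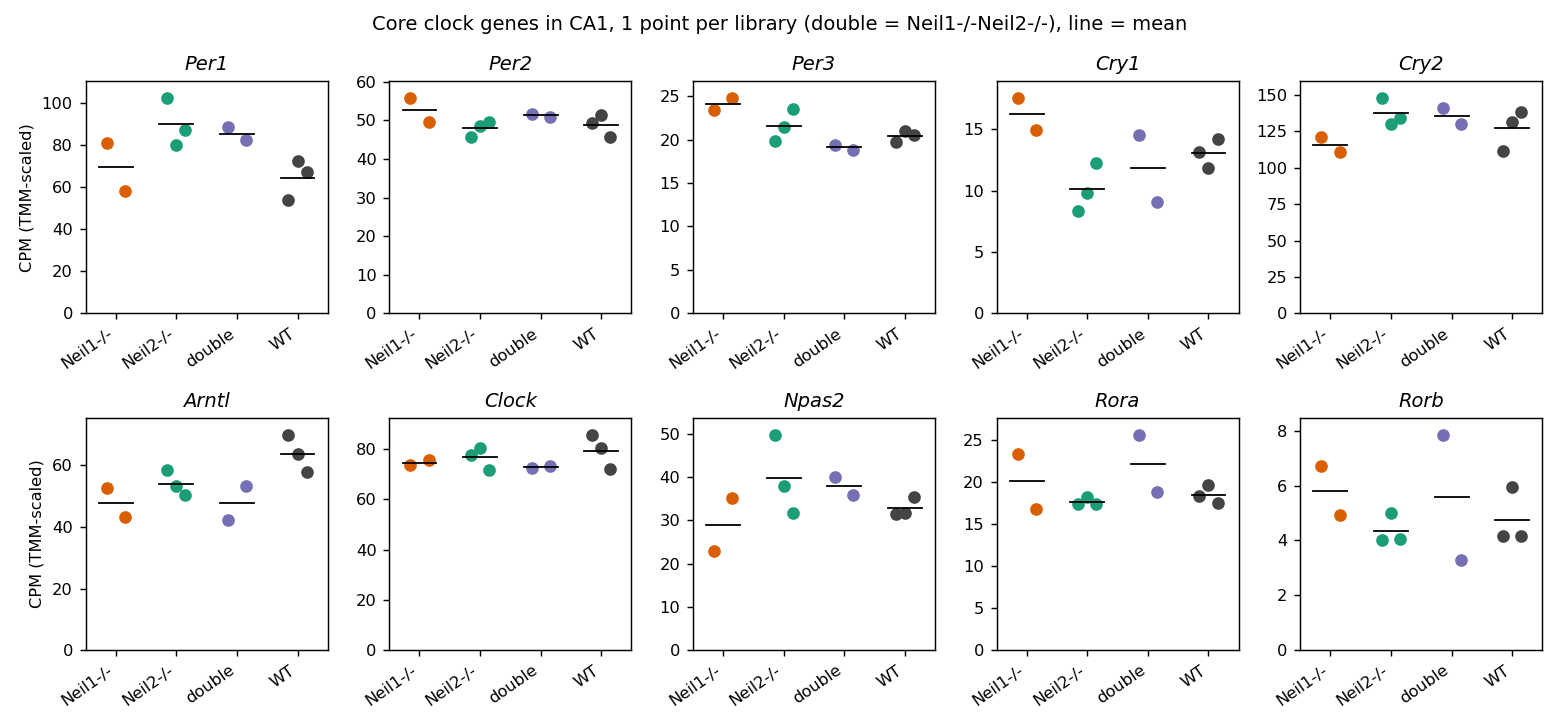
CPM (TMM-scaled, linear axes from 0) of the 10 core clock genes, 1 point per library and a line at the mean of each genotype, where "double" stands for Neil1-/-Neil2-/-. Per1 lay between 80.1 and 102 CPM in the 5 libraries without NEIL2 and between 53.8 and 72.7 in WT. Arntl lay below the lowest WT library (57.9) in Neil1-/- and Neil1-/-Neil2-/- CA1 and overlapped WT in Neil2-/- CA1.

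The Per genes encode the period proteins, the repressors of the loop. Per1, the member that also responds quickly to light and neuronal activity, was measured at 81.0 and 58.4 CPM in Neil1-/- CA1. In Neil2-/- CA1 it was at 102, 80.1 and 87.1 CPM, and in Neil1-/-Neil2-/- CA1 at 88.4 and 82.5, against 53.8, 72.7 and 67.1 in WT. Every library without NEIL2 thus lay above every WT library, while the Neil1-/- libraries overlapped those of WT. The log2 fold change was 0.48 (SE 0.136, 95% interval 0.18 to 0.77) in Neil2-/- against WT, with an adjusted p of 0.245 by edgeR's quasi-likelihood test. DESeq2, run as an alternative, called this difference with an adjusted p of 0.0469, and over all alternatives the adjusted p ran from 0.0469 to 0.749. In Neil1-/-Neil2-/- against WT the log2 fold change of Per1 was 0.41 (95% interval 0.08 to 0.73, edgeR adjusted p = 0.341), and in Neil1-/- against WT it was 0.11 (-0.22 to 0.44).

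Per2, a period gene on which the loop's rhythm depends in mice, was at 55.7 and 49.5 CPM in Neil1-/-, at 45.8, 48.6 and 49.7 in Neil2-/- and at 51.5 and 50.97 in Neil1-/-Neil2-/- CA1, against 49.4, 51.3 and 45.6 in WT. All genotypes overlapped, and the intervals of the log2 fold change against WT lay between -0.19 and 0.29 over the knockouts. Per3, a period gene that is not needed for the rhythm in mice, was at 23.4 and 24.8 CPM in Neil1-/- CA1. It was at 19.8, 21.5 and 23.5 CPM in Neil2-/- and at 19.4 and 18.8 in Neil1-/-Neil2-/- CA1, against 19.7, 21.0 and 20.5 in WT. Both Neil1-/- libraries were above WT and both Neil1-/-Neil2-/- libraries below it. The log2 fold change was 0.24 (SE 0.0968) in Neil1-/- against WT and -0.10 (SE 0.0985) in Neil1-/-Neil2-/- against WT. The interaction, which asks whether the double knockout departs from the sum of the single knockouts, was -0.42 (95% interval -0.72 to -0.11) for Per3, with an unadjusted p of 0.0109 and an adjusted p of 0.841 by edgeR.

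The cryptochromes are the partners of the period proteins in repression. Cry1, which gives the later and stronger repression, was at 17.5 and 14.96 CPM in Neil1-/-, at 8.34, 9.84 and 12.2 in Neil2-/- and at 14.6 and 9.06 in Neil1-/-Neil2-/- CA1, against 13.2, 11.8 and 14.2 in WT. Both Neil1-/- libraries lay above WT, whereas Neil2-/- replicate 3 and Neil1-/-Neil2-/- replicate 1 lay within or above the WT range and the other libraries without NEIL2 below it. The log2 fold change of Cry1 against WT was 0.31 (95% interval -0.12 to 0.74) in Neil1-/-, -0.37 (-0.77 to 0.03) in Neil2-/- and -0.15 (-0.59 to 0.30) in Neil1-/-Neil2-/- CA1. Cry2, the most abundant member, was at 121 and 111 CPM in Neil1-/- and at 148, 130.3 and 134 in Neil2-/- CA1. It was at 141 and 130.1 CPM in Neil1-/-Neil2-/- CA1, against 112, 132 and 138 in WT, and every genotype overlapped WT.

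Arntl encodes the component of the activating pair without which the mouse clock does not run. It was at 52.6 and 43.3 CPM in Neil1-/-, at 58.6, 53.4 and 50.4 in Neil2-/- and at 42.4 and 53.3 in Neil1-/-Neil2-/- CA1, against 69.9, 63.7 and 57.9 in WT. The Neil1-/- and Neil1-/-Neil2-/- libraries thus lay below the lowest WT library, in comparisons where 26.5% and 28.7% of all genes did not overlap WT. The Neil2-/- libraries overlapped those of WT through replicate 1. The log2 fold change against WT was -0.41 (SE 0.124, 95% interval -0.68 to -0.14) in Neil1-/- CA1, with an edgeR adjusted p of 0.396. It was -0.24 (SE 0.110, -0.48 to 0.00) in Neil2-/- CA1 and -0.42 (SE 0.124, -0.69 to -0.14) in Neil1-/-Neil2-/- CA1, with edgeR adjusted p-values of 0.522 and 0.231 in that order. Over the alternatives the adjusted p of Arntl in Neil1-/-Neil2-/- against WT ran from 0.0756 to 0.998. Sums of markers of other tissue reached higher values in the double knockout, where Arntl was lower. The 9 oligodendrocyte markers summed to 681 to 1235 CPM in Neil1-/-Neil2-/- CA1, against 521 to 605 in WT. The 5 blood markers summed to 112 to 274 CPM in Neil1-/-Neil2-/- against 75.7 to 117 in WT, with overlap. The 6 choroid plexus markers summed to 132 to 309 CPM in Neil1-/-Neil2-/- against 60.2 to 175 in WT, also with overlap. Ttr alone held 237 and 77.4 CPM of the choroid plexus sums in Neil1-/-Neil2-/- replicates 1 and 2, and 110 in WT replicate 3. At an unadjusted p of 0.05, 8 of the 9 oligodendrocyte, 4 of the 5 blood and 1 of the 4 tested choroid plexus markers were higher (11.1% of all genes passed it in either direction), 0 of them were called by edgeR, and none was at 0 in all libraries. Without overlap, the 8 striatum markers summed to 404 to 434 CPM in Neil1-/-Neil2-/- against 238 to 331 in WT. The 6 astrocyte markers summed to 297 to 426 CPM against 248 to 285 in WT, also without overlap. At the same unadjusted p, 7 of the 8 striatum and 4 of the 6 astrocyte markers were higher. Of these lists edgeR called 4 striatum and 0 astrocyte markers. Neil1-/-Neil2-/- replicate 1, the library with the lowest Arntl level (42.4 CPM), had the highest sums of the oligodendrocyte, blood and choroid plexus lists (1235, 274 and 309 CPM in that order). Neil1-/- replicate 2, at a close Arntl level (43.3 CPM), had sums of 509, 154 and 45.1 CPM in the same order. Its CA1 pyramidal sum was the lowest of the 10 libraries, 2238 CPM against 2514 to 2709 in WT. Its astrocyte sum was 348.5 CPM against 248 to 285 in WT. In Neil1-/- against WT, 0 of the 9 oligodendrocyte and 0 of the 5 blood markers were at an unadjusted p of 0.05 (8.98% of all genes). At that p, 4 of the 6 thalamus, 1 of the 6 astrocyte and 1 of the 8 striatum markers were higher. Lower were 2 of the 7 CA1 pyramidal and 2 of the 6 interneuron markers. The part of these markers in the Arntl values was not tested. The 3 comparisons share the same 3 WT libraries, among which WT replicate 1 held the highest Arntl level of all.

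Clock and Npas2 encode the alternative partners of ARNTL, NPAS2 being the form known for its expression in the forebrain. Clock was at 73.6 and 75.5 CPM in Neil1-/-, at 77.8, 80.5 and 71.8 in Neil2-/- and at 72.4 and 73.4 in Neil1-/-Neil2-/- CA1, against 85.6, 80.3 and 72.2 in WT, with overlap throughout. Npas2 was at 23.0 and 35.1 CPM in Neil1-/-, at 49.7, 38.0 and 31.7 in Neil2-/- and at 39.99 and 35.95 in Neil1-/-Neil2-/- CA1, against 31.4, 31.7 and 35.4 in WT. Neil2-/- replicate 1 and Neil1-/- replicate 1 were the extremes of Npas2, and the intervals of its log2 fold change against WT were wide (-0.59 to 0.23, -0.09 to 0.64 and -0.20 to 0.61 in Neil1-/-, Neil2-/- and Neil1-/-Neil2-/- CA1).

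**Figure D2:**
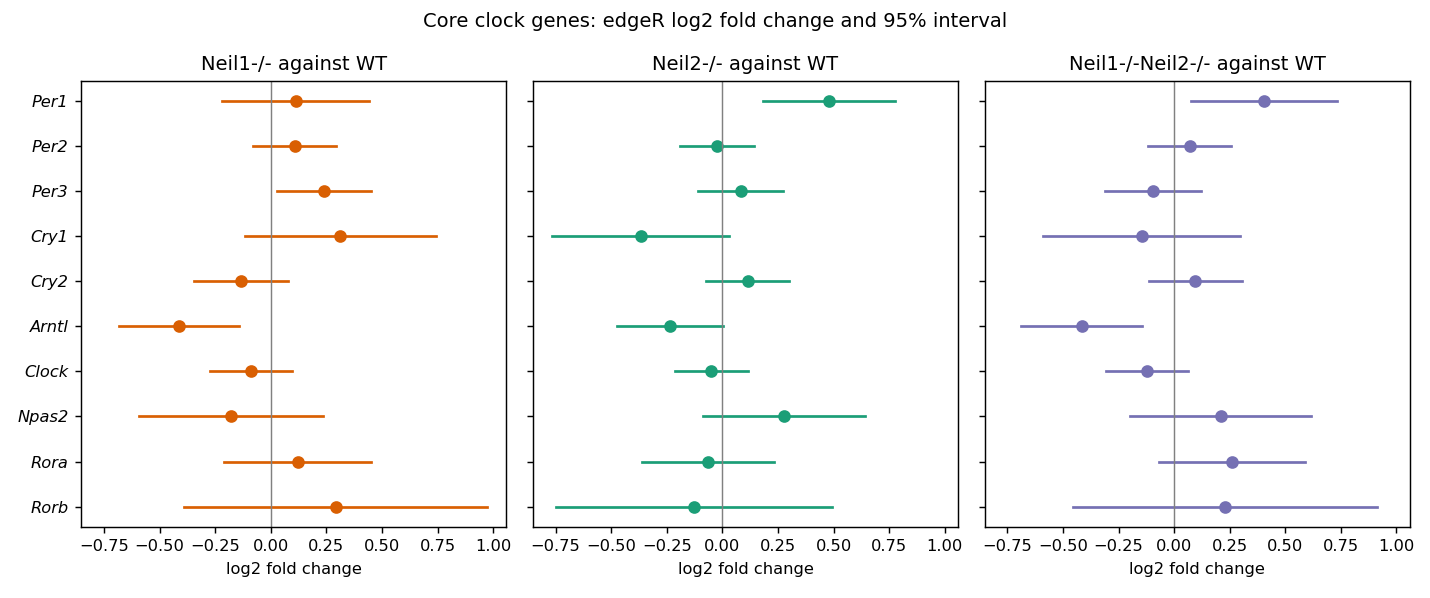
Log2 fold change (points) and 95% interval (lines) of the 10 core clock genes from edgeR in each knockout against the same 3 WT libraries. The intervals that do not cross 0 are those of Arntl and Per3 in Neil1-/-, Per1 in Neil2-/-, and Per1 and Arntl in Neil1-/-Neil2-/- CA1, and none of these passed after adjustment over all 13982 genes.

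Rora and Rorb encode ROR receptors, of which RORA is known as an activator of Arntl. Rora was at 23.4 and 16.8 CPM in Neil1-/-, at 17.4, 18.2 and 17.4 in Neil2-/- and at 25.6 and 18.8 in Neil1-/-Neil2-/- CA1, against 18.3, 19.6 and 17.5 in WT. Rorb, the lowest member, was at 6.72 and 4.92 CPM in Neil1-/-, at 4.01, 4.995 and 4.06 in Neil2-/- and at 7.85 and 3.30 in Neil1-/-Neil2-/- CA1, against 4.17, 5.95 and 4.16 in WT. The same 2 libraries, Neil1-/-Neil2-/- replicate 1 and Neil1-/- replicate 1, were highest in both genes. In these libraries the 6 thalamus markers (Tcf7l2, Lef1, Prkcd, Slc17a6, Ramp3 and Zic1) summed to 72.0 and 71.3 CPM, against 8.85 to 22.3 in the other 8 libraries. All 6 were above 0 in every library, and the part of these markers in the ROR values was not tested. In the loss of NEIL1 over both backgrounds the log2 fold change of Rora was 0.22 (95% interval -0.01 to 0.46, edgeR adjusted p = 0.373), and 0.11 to 0.33 over the alternatives, among them each library left out. No alternative left out both libraries with the high thalamus markers. Without NEIL1, Neil1-/- replicate 2 and Neil1-/-Neil2-/- replicate 2 held Rora at 16.8 and 18.8 CPM, against 17.4 to 19.6 in the libraries with NEIL1. Rora lies 11.5 Mb from Neil1 on chromosome 9, and the part of this linkage was not tested.

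**Figure D3:**
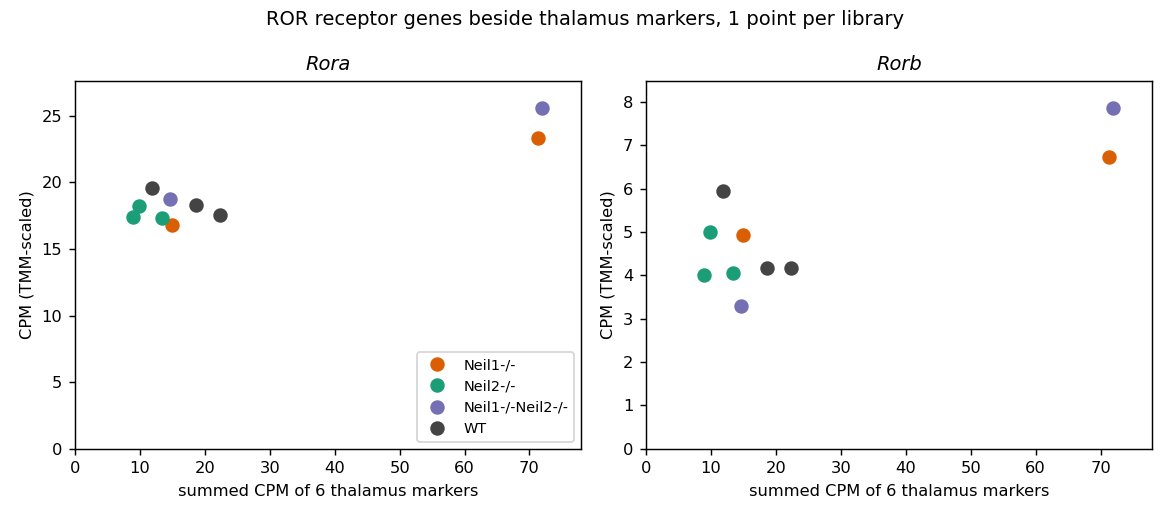
CPM of Rora and Rorb (y axes, from 0) against the summed CPM of 6 thalamus markers (x axis), 1 point per library in the colour of its genotype. Neil1-/-Neil2-/- replicate 1 and Neil1-/- replicate 1 lie apart at 72.0 and 71.3 CPM of the markers and have the highest Rora (25.6 and 23.4 CPM) and Rorb (7.85 and 6.72 CPM).

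Read together over the table, no core clock gene passed in any comparison of a knockout with WT by edgeR at an adjusted p of 0.05. In Neil1-/- against WT, edgeR called 0 of the 10 where it called 0.2% of all genes, limma voom 0 (0.207% of all genes) and DESeq2 0 (0.615%). At an unadjusted p of 0.05 there were 2 (Per3 and Arntl), where 8.98% of all genes passed, and 3 did not overlap WT (Per3 and Cry1 above, Arntl below), as did 26.5% of all genes. In Neil2-/- against WT, edgeR called 0 (0.3% of all genes), limma voom 0 (0.322%) and DESeq2 1, Per1 (1.13%). Per1 was also the 1 member at an unadjusted p of 0.05 (9.65% of all genes) and the 1 without overlap (15.3%). In Neil1-/-Neil2-/- against WT, edgeR called 0 (0.322%), limma voom 0 (0.3%) and DESeq2 0 (1.33%). Per1 and Arntl were at an unadjusted p of 0.05 (11.1% of all genes), and Per1 and Npas2 lay above all WT libraries and Per3 and Arntl below them, 4 in all where 28.7% of all genes did not overlap. The median log2 fold change of the 10 was 0.11, -0.04 and 0.08 in Neil1-/-, Neil2-/- and Neil1-/-Neil2-/- CA1, against 0.00 over all genes in each.

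The interaction was called for 0 core clock genes by edgeR (0.093% of all genes), 0 by limma voom (0.0858%) and 0 by DESeq2 (0.215%). Per3 was the 1 at an unadjusted p of 0.05, which 5.52% of all genes reached. The loss of NEIL1 was then taken over both Neil2 backgrounds, 4 libraries without NEIL1 and 6 with it. By edgeR 0 members were called (0.336% of all genes), by limma voom 0 (0.322%) and by DESeq2 0 (1.72%), and none was free of overlap (2.35%). Arntl was the 1 member at an unadjusted p of 0.05 (13.8% of all genes), with a log2 fold change of -0.29 (SE 0.0910, 95% interval -0.49 to -0.10, edgeR adjusted p = 0.213). Over its alternatives this adjusted p ran from 0.0855 to 0.833. In the same comparison 8 of the 9 oligodendrocyte markers were higher at an unadjusted p of 0.05 (median log2 fold change 0.43), as were 3 of the 5 blood markers (0.75), where 13.8% of all genes passed in either direction. So were 6 of the 6 thalamus (1.59), 6 of the 8 striatum (1.16) and 4 of the 6 astrocyte markers (0.34). The oligodendrocyte median against WT was 0.04 in Neil1-/-, with 0 of the 9 at that p, and 0.73 in Neil1-/-Neil2-/- CA1, with 8. EdgeR called 0 of the oligodendrocyte, blood, thalamus and astrocyte markers, and the part of all these markers in the Arntl value was not tested. Ppp1r1b, a striatum marker, rose (0.48, edgeR adjusted p = 0.00286), though its libraries overlapped.

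Loss of NEIL2, 5 libraries without NEIL2 against 5 with it, gave the most core clock genes at an unadjusted p of 0.05, 4 of the 10. Per1 had a log2 fold change of 0.40 (SE 0.105, 95% interval 0.18 to 0.63), at 88.1 ± 8.64 CPM without NEIL2 and 66.6 ± 10.9 with NEIL2 (SD, n = 5 each). The ranges overlapped by 1 library, as Neil1-/- replicate 1 (81.0 CPM) exceeded Neil2-/- replicate 2 (80.1 CPM). The edgeR adjusted p was 0.0788 (0.00845 to 0.200 over the alternatives), and Per1 was called by DESeq2 (adjusted p = 0.00845), by edgeR without the filter on low counts (0.0357) and by edgeR without Neil1-/- replicate 1 (0.0298). Cry1 had a log2 fold change of -0.41 (SE 0.136, 95% interval -0.70 to -0.11), at 10.8 ± 2.56 CPM without NEIL2 and 14.4 ± 2.13 with NEIL2 (SD, n = 5 each), and an edgeR adjusted p of 0.164. Npas2 was at 39.1 ± 6.70 CPM without NEIL2 and 31.3 ± 5.03 with NEIL2 (SD, n = 5 each), a log2 fold change of 0.32 (0.05 to 0.60, edgeR adjusted p = 0.229). Cry2 was at 137 ± 7.62 CPM without NEIL2 and 123 ± 12.1 with NEIL2 (SD, n = 5 each), a log2 fold change of 0.16 (0.02 to 0.30, edgeR adjusted p = 0.253). These 4 were at an unadjusted p of 0.05, as were 16.1% of all genes. By edgeR 0 members were called (1.49% of all genes), by limma voom 0 (1.5%) and by DESeq2 1, Per1 (4.79% of the 13166 genes given an adjusted p), and 0 of the 10 were free of overlap (3.68%). The other 6 members had log2 fold changes of -0.15 (Arntl) to 0.02 (Rora).

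The wider clock was read from a list of 23 further genes, all tested. With loss of NEIL2, edgeR called 7 of them, 6 higher and 1 lower, where it called 1.49% of all genes. Ciart, the repressor whose promoter is shown above, rose to 23.9, 25.5 and 36.3 CPM in Neil2-/- and 31.0 and 33.1 in Neil1-/-Neil2-/- CA1, against 8.91 and 10.04 in Neil1-/- and 7.17, 11.1 and 7.95 in WT (log2 fold change 1.73, SE 0.135, edgeR adjusted p = 7.55e-05). Nr1d1, which encodes the REV-ERB alpha repressor of Arntl, lay between 172 and 226 CPM in Neil2-/- and was at 205 and 214 in Neil1-/-Neil2-/- CA1, against 93.3 and 83.8 in Neil1-/- and 78.7, 125 and 78.4 in WT. Its log2 fold change was 1.15 (SE 0.121, edgeR adjusted p = 0.00102). In both genes every library without NEIL2 lay above every library with it. Dbp, an activator that binds D-boxes, rose by 1.01 (SE 0.137, edgeR adjusted p = 0.00316), Nr1d2 (REV-ERB beta) by 0.34 (SE 0.0599), Bhlhe41 (the repressor DEC2) by 0.43 (SE 0.0810) and Usp2 (a deubiquitinase) by 0.69 (SE 0.133) on the log2 scale. Nfil3, the repressor that competes with DBP for D-boxes, fell by 1.16 on the log2 scale (SE 0.162, edgeR adjusted p = 0.00383), at 4.47 ± 0.424 CPM without NEIL2 and 10.1 ± 2.37 with NEIL2 (SD, n = 5 each).

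Against WT the same list gave 0 called genes in Neil1-/- CA1 (0.2% of all genes), with 5 at an unadjusted p of 0.05 (8.98% of all genes), 3 by DESeq2 (0.615%) and 0 by limma voom (0.207%). It gave 3 in Neil2-/- CA1 (Ciart, Nr1d1 and Dbp, where 0.3% of all genes were called) and 2 in Neil1-/-Neil2-/- CA1 (Ciart and Nr1d1, where 0.322% were called), all higher. For the interaction edgeR called 0 of the 23 (0.093% of all genes), with 2 at an unadjusted p of 0.05 (5.52%), and DESeq2 (0.215%) and limma voom (0.0858%) called 0 each. For the loss of NEIL1 edgeR called 0 (0.336%), with 5 at an unadjusted p of 0.05 (13.8%), DESeq2 called 2 (1.72%) and limma voom 0 (0.322%). Whether the core genes and the rest of the clock differ in their response was not tested. Values of other lists moved with the loss of NEIL2 too, and their part in the clock values was not tested. With the loss of NEIL2, edgeR called 1.49% of all genes, and 16.1% were at an unadjusted p of 0.05. The 8 striatum markers summed to 348 to 434 CPM in the libraries without NEIL2, against 238 to 331 with NEIL2, and 1 of them, Ppp1r1b, rose (0.46 on the log2 scale, with overlapping libraries), with 6 higher at an unadjusted p of 0.05. Against WT, Ppp1r1b also rose in Neil2-/- CA1 (0.44), and Drd1 (3.57), Drd2 (2.94), Adora2a (3.28) and Ppp1r1b (0.94) rose in Neil1-/-Neil2-/- CA1. The median log2 fold change of the 8 striatum markers against WT was 0.13 in Neil2-/- and 1.94 in Neil1-/-Neil2-/- CA1. At an unadjusted p of 0.05, 2 and 7 of them were higher (9.65% and 11.1% of all genes passed in either direction). Drd1, Drd2 and Adora2a lay between 0.233 and 1.13 CPM in Neil2-/- CA1, against 0.194 to 0.935 in WT. The interaction was called for Drd1 (4.44, edgeR adjusted p = 0.0493). Of 5 endothelial markers Cldn5, which encodes a tight junction protein, fell by 0.77 on the log2 scale, at 5.63 to 8.15 CPM without NEIL2 and 9.39 to 11.9 with NEIL2, with no overlap, and it fell by 0.93 in Neil2-/- against WT. The endothelial list did not fall as a whole with the loss of NEIL2. Of its 5 markers 3 had a log2 fold change above 0 (median 0.09), 1 of them higher at an unadjusted p of 0.05. Of 14 neuronal activity genes all had a log2 fold change below 0 with the loss of NEIL2, 9 of them at an unadjusted p of 0.05, and 2 fell (Nr4a2 by 0.74 and Nr4a3 by 0.36 on the log2 scale). Nr4a2 also fell in Neil1-/-Neil2-/- against WT, by 0.75. Of 7 temperature-responsive genes, 6 were at an unadjusted p of 0.05, and the cold-induced Cirbp (0.79) and Rbm3 (0.83) rose and Hsph1 (-0.28), which encodes a heat shock protein, fell on the log2 scale. Against WT, Cirbp rose in Neil2-/- (0.72) and in Neil1-/-Neil2-/- CA1 (0.66). Of 10 glucocorticoid targets 6 were at an unadjusted p of 0.05, all higher, and Klf9 rose (0.28). With the loss of NEIL1, where 0.336% of all genes were called, Zbtb16 of the same list fell (-0.42).

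**Figure D4:**
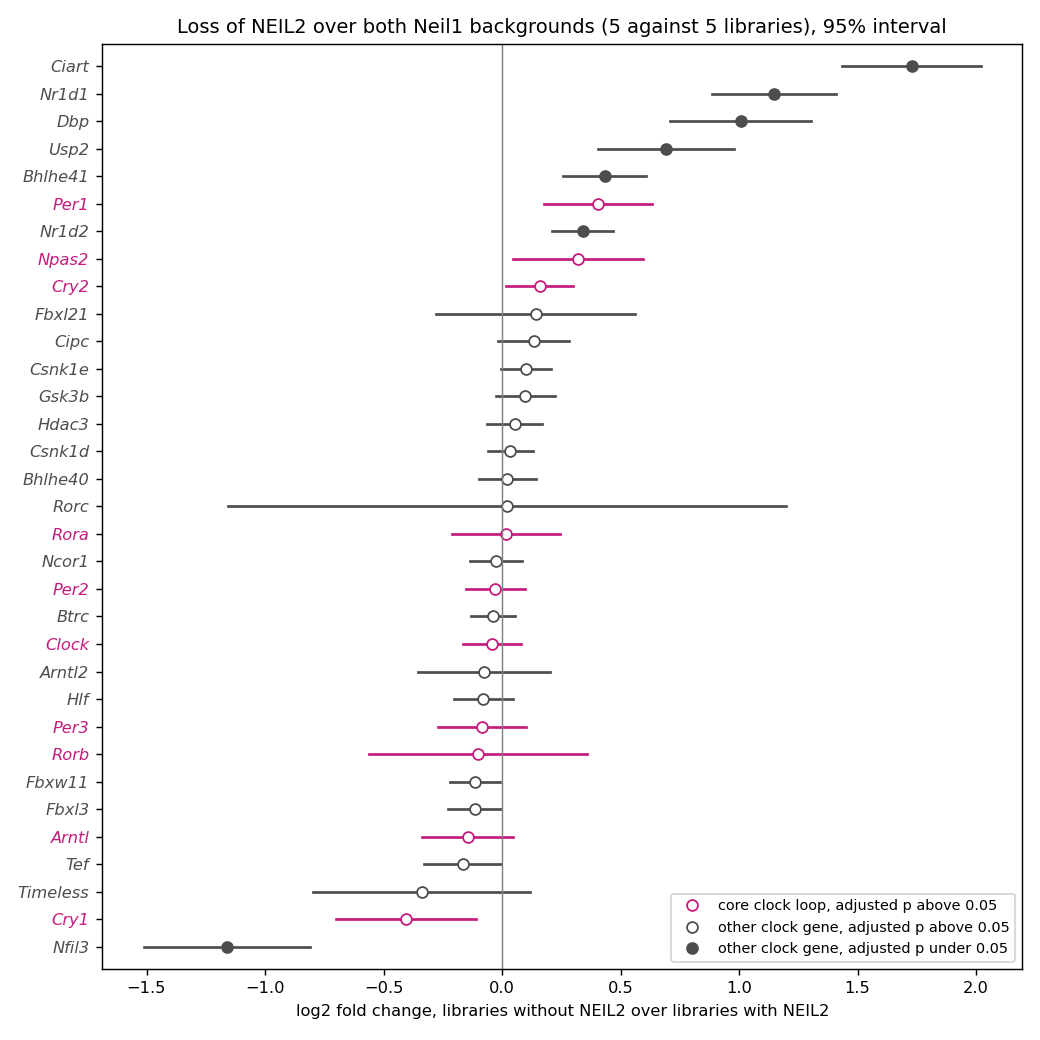
Log2 fold change (points) and 95% interval (lines) of 33 clock genes for libraries without NEIL2 over libraries with NEIL2, 5 of each, from edgeR. The 7 filled points, all from the list of other clock genes, passed an adjusted p of 0.05, with Ciart at 1.73 and Nfil3 at -1.16 as the extremes; among the core genes in colour Per1 (0.40) was the highest and Cry1 (-0.41) the lowest.

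To ask whether libraries ranked alike within the loop, Arntl was set against 4 genes over the 10 libraries of all genotypes (log2 CPM, permutation tests, 2-sided, adjusted over the 4 pairs). Pearson's r was -0.24 with Per2 (p = 0.515, rho = -0.45, p = 0.189), -0.37 with Per3 (p = 0.288, rho = -0.28, p = 0.429), -0.11 with Npas2 (p = 0.774, rho = -0.12, p = 0.759) and -0.27 with Nr1d1 (p = 0.442, rho = -0.22, p = 0.538). The adjusted permutation p was 0.687 or more for r and 0.718 or more for rho. Without the 2 libraries farthest from the Arntl median, WT replicate 1 and Neil1-/-Neil2-/- replicate 1, r became -0.18, -0.67, 0.17 and 0.20 for Per2, Per3, Npas2 and Nr1d1. Within genotypes, after the mean of each was subtracted, r was 0.32, -0.67, -0.25 and 0.23 in the same order. That of Per3 had an exact permutation p of 0.0278 over 144 arrangements and an adjusted p of 0.111.

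Genes with the most similar pattern to a member were looked for over the same 10 libraries among all genes tested, as a description, since shared genotype means and library composition enter every such value. The highest r with Per1 was that of Alpk1 (0.97), an alpha kinase gene, and with Arntl that of Ppfia2 (0.95), which encodes a liprin of the presynapse. After Ppfia2, the genes most like Arntl were Tmcc1 and then Tdg, which encodes another DNA glycosylase (r of 0.92 each). Arntl was most opposed by Prxl2b (-0.92). Rora was most like Tnnt1 (0.97), which was at 3.88 CPM in Neil1-/-Neil2-/- replicate 1 and 2.10 in Neil1-/- replicate 1, against 0.502 to 1.31 in the other libraries. The closest r of the remaining members lay between 0.86 (Srpk2 with Per2) and 0.96 (Kif1c with Cry2).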

How the data were processed

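Poly-A RNA of laser-microdissected CA1 was read as paired 100-bp reads. The authors deposited estimated counts per gene, made by the sequencing company with RSEM on Bowtie2 alignments to GRCm38 (versions are not given in the sources used here); 87.8% of the values are whole numbers, and all were rounded to whole numbers before testing. RSEM shares reads among similar genes. Libraries were grouped by their genotype label, and 2 of the 12, whose title and label disagree, were left out. The 10 libraries held 19618923 to 21970180 counts, and the lowest member, Rorb, had 67 to 160.

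Genes were filtered with filterByExpr (minimum count 10), scaled by TMM and fitted with edgeR 4.0.16 (R 4.3.3, glmQLFit and glmQLFTest), with 1 mean per genotype or additive terms for loss of NEIL1 and NEIL2. Tests were 2-sided, with Benjamini-Hochberg adjustment over the 13982 genes tested, with a threshold of 0.05. Each mouse gave 1 library. CPM of the 2 libraries left out use TMM factors over all 12. Levels per kb use the union of GENCODE M21 exons. Alternatives were DESeq2 1.42.0, limma 3.58.1 voom, no filter, median-ratio scaling, untrended and robust fits, a fit of WT and 1 knockout alone, a threshold of 0.1, each library left out and a replicate block. The scripts were tested on simulated data. The 10 members and all lists were chosen with earlier results of these data known. The text names all members, every gene called from the other lists, the 3 genes of highest r with a member at most (and for Arntl of lowest r), and others mostly by count. Figures were drawn with matplotlib 3.10.9.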

Additional observations from a re-analysis of the deposited data

Results flagged for a closer look

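Per3 lay above every WT library in both Neil1-/- libraries (log2 fold change 0.238) and below every WT library in both Neil1-/-Neil2-/- libraries (-0.0956). The difference between these genotypes was not itself tested, and the interaction had an edgeR adjusted p of 0.841. Fbxw11, a subunit of a ubiquitin ligase that acts on period proteins, lay above WT in Neil1-/- (0.1471) and Neil1-/-Neil2-/- (0.1002) and below it in Neil2-/- CA1 (-0.1611), in every library. Usp2 lay above WT in Neil2-/- (0.4143) and Neil1-/-Neil2-/- (0.4453) and below it in Neil1-/- CA1 (-0.6747), again in every library. The interactions of Fbxw11 and Usp2 had edgeR adjusted p-values of 0.931 and 0.690, and the differences between genotypes were not otherwise tested. In Neil1-/-, Neil2-/- and Neil1-/-Neil2-/- against WT, the edgeR adjusted p was 0.571, 0.431 and 0.646 for Fbxw11. For Usp2 it was 0.108, 0.255 and 0.231. In the same order, 26.5%, 15.3% and 28.7% of all genes did not overlap WT. The share of all genes on opposite sides of WT was not counted. Usp2 lies 13.1 Mb from Neil1 on chromosome 9.

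The 2 libraries that entered no comparison held members above the highest WT library. In the first of them these were Per2 (54.02 CPM), Per3 (22.15), Cry1 (17.24), Clock (86.38) and Rora (22.49 CPM). In the second they were Per1 (84.98 CPM), Per3 (21.53) and Npas2 (37.77 CPM). Other members lay below the lowest WT library, Npas2 (28.8 CPM) and Arntl (57.1 CPM) in the first, and Cry1 (9.09 CPM), Arntl (46.4 CPM) and Rora (17.1 CPM) in the second. The share of all genes outside the WT range in these libraries was not counted. These values were scaled over 12 libraries and those of WT over 10, so close values cannot be ordered. Examples are Clock (86.38 against 85.62 CPM in WT replicate 1) and Arntl (57.11 in the first library against 57.92 CPM in WT replicate 3).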

How the results depend on the processing

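Of 1170 values of core clock genes under other settings 1165 stayed on their side of the threshold, 5 passed it where the reported fit did not (all Per1), 0 reversed, and 42 changed sign while never called. Of 2683 values of the other clock genes 2615 stayed, 38 no longer passed, 30 newly passed, 0 reversed and 133 changed sign while never called. For core genes with loss of NEIL2, the reported count of 0 became 1 at a threshold of 0.1, without the filter on low counts and with DESeq2, and ran from 0 to 1 with each library left out (1 without Neil1-/- replicate 1). DESeq2 also gave 1 in Neil2-/- against WT. For the other clock genes in Neil1-/- against WT, the reported 0 became 1 (Usp2) without the filter and 3 with DESeq2, and ran from 0 to 1 with libraries left out (1 without WT replicate 1). With loss of NEIL1 DESeq2 gave 2. In Neil2-/- against WT the reported 3 became 1 with robust fitting and 6 with DESeq2, and ran from 1 to 4 with libraries left out (1 without Neil2-/- replicate 1 or 3, or WT replicate 1 or 3). In Neil1-/-Neil2-/- against WT the reported 2 became 6 at a threshold of 0.1, without the filter and with DESeq2, and 1 with robust fitting. It ran from 1 to 6 with libraries left out (6 without WT replicate 2, and 1 without WT replicate 1 or 3 or Neil1-/-Neil2-/- replicate 1). With loss of NEIL2 the reported 7 ran from 4 to 7 (4 without WT replicate 1). Without both Neil1-/-Neil2-/- replicate 1 and Neil1-/- replicate 2, a setting chosen after seeing the data, the counts were 1 in Neil1-/-Neil2-/- against WT and 4 with loss of NEIL2. Where a count fell to 1, the gene was Ciart, called in all 20 settings of both comparisons. The causes were not tested. Leaving libraries out moved r of Arntl from -0.34 to -0.15 with Per2, -0.70 to -0.11 with Per3, -0.31 to 0.03 with Npas2 and -0.57 to -0.03 with Nr1d1.

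The replicate numbers are shared by genotypes, but over 13 same-number pairs the deviations from the group means correlated between -0.1654 and 0.1862 (median -0.0146), and 1 pair was over 0.1. With the number as a replicate block, 1 other clock gene was called in Neil2-/- and 1 in Neil1-/-Neil2-/- against WT, 7 with loss of NEIL2, and 0 core genes in any comparison. Groups of 2 or 3 mice limit all intervals, and where 1 library of 2 is left out the other is taken to vary as the remaining genotypes do.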

Other observations

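The 2 libraries whose title and label disagree were measured for the whole loop. The first held Per1 at 68.2, Arntl at 57.1, Cry2 at 123 and Rorb at 4.22 CPM, and the second held Per2 at 49.5, Arntl at 46.4, Cry1 at 9.09, Cry2 at 136, Clock at 80.2, Rora at 17.1 and Rorb at 5.04 CPM. Among the other clock genes, Nr1d1 was at 70.9 CPM in the first and 220 in the second, Ciart at 5.79 and 33.5 CPM, Dbp at 52.6 and 126 CPM, and Nfil3 at 8.69 and 4.49 CPM, in that order.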
